A study of Homo sapiens with 6 samples.

Results

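GATA1, GATA2 and ZFPM1 are 3 genes whose products act together in blood cell development, and the accessible sites in and around them were followed in K562 cells treated with a phorbol ester. A site was taken as a member where it overlapped the body of 1 of these genes, extended by 50000 bases on each side. This rule gave 77 of the 181135 sites of the authors' table: 19 at GATA1 (chromosome X), 22 at GATA2 (chromosome 3) and 36 at ZFPM1 (chromosome 16). All 77 passed the filter on low counts and were tested.

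GATA1 and GATA2 are zinc-finger transcription factors that bind the same short DNA sequence, AGATAA and its close variants. GATA2 maintains stem and progenitor cells, while GATA1 drives erythroid and megakaryocytic maturation and can replace GATA2 at shared sites, an exchange known as the GATA switch. ZFPM1, also called FOG1, does not need to bind DNA itself: it is a zinc-finger cofactor that attaches to the GATA factors and is required in both lineages.

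The assay was ATAC-seq, in which a transposase cuts open chromatin and inserts sequencing adapters, so that more reads fall on more accessible sites. K562 is an established human line from a chronic myelogenous leukaemia, given with a WT genotype in every library. Cells received 25 nM phorbol 12-myristate 13-acetate (PMA), an activator of protein kinase C, for 0, 6 or 72 h, with 2 libraries per time. The labels name megakaryocyte differentiation as the aim of this treatment, and the comparisons ask how accessibility had changed by 6 h and by 72 h. They do not say whether the libraries of a time came from separate cultures, so p-values measure only the spread between these libraries, which may be technical.

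Gene starts and promoter bases are from RefSeq on GRCh38.p14, and the submitters' processing notes name hg38, the same build. GATA1 has 1 annotated start in these tables. GATA2 has an upstream start at its 5' end and an internal start within the gene, and the ZFPM1 start used here lies just inside the 5' end of its gene interval. The 250 bases before each start are shown because the promoter sites described next cover most of these stretches in full or in part. They are also shown because the GATA2 starts differ in whether a listed site covers them. The GATA1 stretch is chrX:48786340-48786589 on the plus strand. The internal GATA2 stretch is chr3:128488531-128488780 and the upstream one chr3:128493202-128493451, both on the minus strand. The ZFPM1 stretch is chr16:88453030-88453279 on the plus strand. Capitals mark matches on either strand to a GATA motif (AGATAA or TGATAA, or either of them ending in G), an AP-1 motif (TGANTCA), a GC box (GGGCGG) or a CACCC box (CCACCC), and overlapping matches run together.
GATA1: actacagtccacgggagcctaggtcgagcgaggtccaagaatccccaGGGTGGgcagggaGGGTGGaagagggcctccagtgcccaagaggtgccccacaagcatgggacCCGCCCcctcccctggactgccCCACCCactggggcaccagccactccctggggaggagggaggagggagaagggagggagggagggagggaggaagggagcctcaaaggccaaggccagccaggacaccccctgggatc
GATA2, internal start: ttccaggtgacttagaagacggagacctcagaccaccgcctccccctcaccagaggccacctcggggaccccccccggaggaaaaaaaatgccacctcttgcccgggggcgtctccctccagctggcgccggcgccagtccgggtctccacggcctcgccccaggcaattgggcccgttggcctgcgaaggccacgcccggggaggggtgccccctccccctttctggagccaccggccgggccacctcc
GATA2, upstream start: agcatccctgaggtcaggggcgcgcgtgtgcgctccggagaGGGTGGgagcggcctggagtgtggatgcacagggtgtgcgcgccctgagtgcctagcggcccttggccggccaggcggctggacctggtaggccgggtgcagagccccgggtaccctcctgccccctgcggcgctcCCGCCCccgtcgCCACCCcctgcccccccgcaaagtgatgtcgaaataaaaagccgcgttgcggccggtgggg
ZFPM1: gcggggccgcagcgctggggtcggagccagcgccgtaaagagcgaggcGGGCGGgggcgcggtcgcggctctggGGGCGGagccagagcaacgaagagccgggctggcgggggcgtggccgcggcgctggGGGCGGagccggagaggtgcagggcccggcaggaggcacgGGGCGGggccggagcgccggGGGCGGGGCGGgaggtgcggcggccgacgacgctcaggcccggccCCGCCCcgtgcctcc

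The 4 stretches differed in composition. GATA1 held 3 CACCC boxes and 1 GC box, the ZFPM1 stretch held 7 GC boxes, the upstream GATA2 stretch held 2 CACCC boxes and 1 GC box, and the internal GATA2 stretch held none of the marked motifs. None of the 4 stretches held a match to the GATA or AP-1 motifs. Among the 22199 promoter stretches of the same length in the RefSeq table, 17.9% held a GATA match, 5.36% an AP-1 match, 53.7% a GC box and 34.8% a CACCC box. GC content was 68.4% for GATA1, 71.2% and 72.8% for the internal and upstream GATA2 starts and 83.2% for ZFPM1, against a median of 62.0% over all promoter stretches. A match is a string of letters and not evidence of binding. Listed sites covered all 250 bases of the internal GATA2 and of the ZFPM1 stretch, 79 bases of the GATA1 stretch and 0 bases of the upstream GATA2 stretch. The peak summits of the promoter sites lay outside the printed bases. They were at -408 to -266 bases from the start for GATA1 and at -385 to -272 bases for ZFPM1. For GATA2 they were 4985 to 5379 bases downstream of the upstream start, past the internal start. The motif counts therefore do not describe the summits.

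Reads in the listed sites summed to between 12258890 and 35548737 per library, with the lowest and the next highest totals both at 6 h (12258890 and 33634403). Levels are given as CPM, counts scaled to TMM-adjusted library size, and tests are edgeR quasi-likelihood tests over all 177759 tested sites with Benjamini-Hochberg adjustment, called at an adjusted p under 0.05. The scaling bears on direction, because the whole distribution of changes moves with it: at 72 h against 0 h the median over tested sites, on the log2 scale, was 0.293 with TMM, 0.111 with RLE size factors, 0.791 with total counts, 1.258 with TMM factors from sites that had a peak in all 6 libraries, and -0.043 with loess offsets that follow site strength. Directions are given on the TMM scale, and many calls did not hold under another scaling. As a check of the cell label, sites were read at the starts of marker genes. Of 6 erythroid genes, 3 had a start in the promoter table and 2 of these, EPOR and TAL1, a site there, at 42.4 and 47.3 CPM (EPOR) and 58.8 and 54.5 CPM (TAL1) in the 0 h libraries; both fell by 6 h and by 72 h, the 6 h call of TAL1 being lost with shared-site factors (-0.30) and loess offsets (-0.32). Of 9 genes of other cell types, 3 had a start in that table and 2 had a site, CD3D and CD79A, at 7.67 and 8.46 CPM and at 7.08 and 9.94 CPM in the 0 h libraries, and neither was called at either time, though with shared-site factors CD3D was called higher at both and CD79A at 72 h. So few genes make this a weak check.

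Across the 77 sites, and on the TMM scale, PMA was followed by loss of accessibility at the promoters of all 3 genes and along the body of ZFPM1, and by gain at most sites downstream of GATA2. The promoter loss was not particular to these genes, since 83.8% of all promoter sites were called lower at 72 h. Of all tested sites with a mean of 10 CPM or more, which include several in the body of ZFPM1, 73.4% were called lower at 72 h. At 6 h against 0 h, 42 of 77 sites (54.5%) were called, 19 higher and 23 lower, where 40.1% of all tested sites were called. At 72 h against 0 h, 60 sites (77.9%) were called, 22 higher and 38 lower, against 67.4% of all tested sites. The median log2 fold change of the 77 sites was -0.19 at 6 h and -0.65 at 72 h, beside medians of 0.05 and 0.293 for all tested sites. At 72 h against 6 h, 34 sites (44.2%) were called, 7 higher (9.09%) and 27 lower (35.1%), against 42.9% of all tested sites, 22.1% higher and 20.9% lower. In bulk libraries like these, fewer cells with an open site and less opening per cell cannot be told apart.

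The split into higher and lower sites moved with the scaling. Higher sites made up 45.2% of those called at 6 h on the TMM scale and 61.1% with factors from shared sites. At 72 h against 0 h they made up 36.7% on the TMM scale, 48.2% with total counts and 66.7% with factors from shared sites. For 72 h against 6 h the shares were 20.6% on the TMM scale, 34.4% with loess offsets, 46.4% with total counts and 64.5% with factors from shared sites.

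The promoter sites of the 3 genes all lost accessibility by 72 h, but along different courses (plot of promoter accessibility by time). The GATA1 site was lowest at 6 h, the GATA2 site was called only after 6 h, and the ZFPM1 site fell at both steps, all on the TMM scale. Each of the 3 calls at 72 h was lost under 1 of the other 4 scalings. These courses are described gene by gene.

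**Figure D1:**
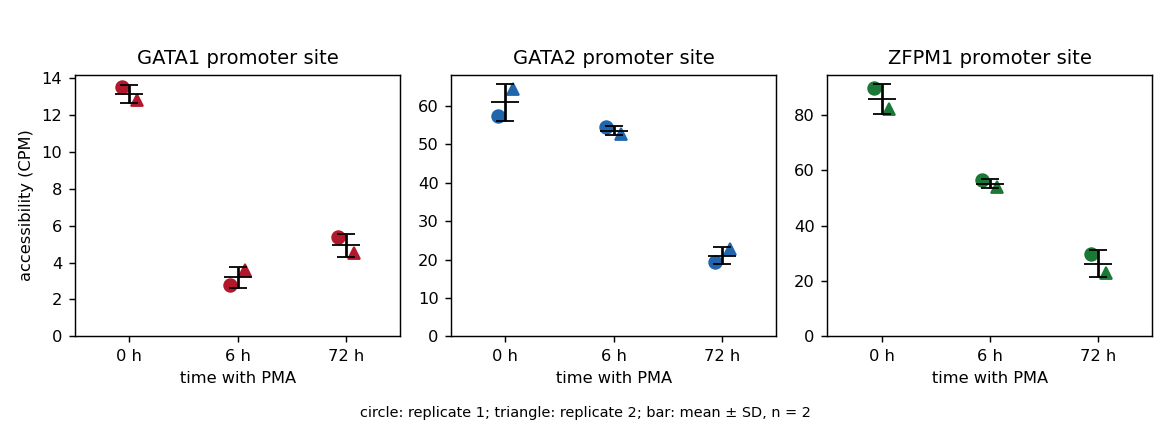
Accessibility (CPM) of the promoter site of each gene in the 2 libraries of each time, with the mean and SD (n = 2) as black bars. The GATA1 site drops to 2.81 and 3.60 CPM at 6 h, the GATA2 site lies between 52.7 and 64.4 CPM at 0 and 6 h, and the ZFPM1 site falls at each step; with loess offsets the 72 h falls of GATA2 and ZFPM1 shrink to -0.21 and -0.23 on the log2 scale.

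GATA1, the erythroid and megakaryocytic factor, has its promoter site (peak178046) at chrX:48785611-48786418, with its centre at -0.6 kb from the start. Its accessibility was 13.5 and 12.8 CPM in the 0 h libraries, 2.81 and 3.60 CPM at 6 h, and 5.38 and 4.50 CPM at 72 h. Both 6 h libraries lay below both 72 h libraries, which in turn lay below both 0 h libraries. The means were 13.1 ± 0.491 CPM at 0 h, 3.21 ± 0.560 CPM at 6 h and 4.94 ± 0.619 CPM at 72 h (SD, n = 2). At 6 h the site was 3.98-fold lower than at 0 h (log2 fold change -1.99, SE 0.24, edgeR adjusted p = 1.1e-06). At 72 h it was 2.65-fold lower (-1.41, SE 0.22, edgeR adjusted p = 1.2e-05), a call that was lost with TMM factors from shared sites (-0.44, adjusted p = 0.087). The difference between 72 h and 6 h, 0.59 (SE 0.24), missed the threshold at an edgeR adjusted p of 0.056 and was called with total counts (0.96), factors from shared sites (1.26) and loess offsets (0.68), and without either 0 h library. The authors' peak lists held a peak over this site in both libraries at 0 h and at 72 h, and in neither at 6 h. Peak summits lay between -408 and -266 bases from the start.

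Among promoters, the early fall at GATA1 was among the largest and its 72 h fall was not. Over the 10866 promoter sites of 12082 protein-coding genes, those with a start in the RefSeq promoter table and a listed site within 1000 bases of it, the median log2 fold change was -0.41 at 6 h and -1.31 at 72 h. Only 0.396% of these sites had a lower value than GATA1 at 6 h, whereas 39.9% did at 72 h. With loess offsets the share below GATA1 at 6 h was 0.285%. The other scalings, TMM included, use a single factor per library. They hardly move the order of sites, so their shares (0.396% to 0.405%) are no separate check of this rank. From 6 h to 72 h the order turned: 95.1% of promoter sites had a lower value than the 0.59 of GATA1. At 72 h the share below GATA1 was 7.01% with loess offsets, against 39.9% or 40.0% with the single-factor scalings.

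The dip at 6 h was also present in ratios of counts within a library, into which no scaling factor enters. The ratio of the GATA1 to the GATA2 promoter site started at 0.234 and 0.198, dropped to 0.052 and 0.068 at 6 h, and came to 0.278 and 0.198 by 72 h. Both 6 h libraries were lowest, and the 0 h and 72 h libraries overlapped. Against the ZFPM1 promoter site the ratio was 0.150 and 0.156, then 0.050 and 0.067, then 0.182 and 0.198. Against the start of the neighbouring gene HDAC6, which encodes a cytoplasmic deacetylase, it was 0.087 and 0.079, then 0.027 and 0.031, then 0.125 and 0.097. Within the GATA1 locus, the ratio of the promoter site to the -3.5 kb site was 0.685 and 0.706, then 0.295 and 0.356, then 0.667 and 0.584. In all 4 ratios both 6 h libraries lay below the other 4. The sites divided by were themselves lower at 72 h than at 0 h on the TMM scale. Their log2 fold changes were -1.53 (GATA2), -1.71 (ZFPM1), -1.82 (HDAC6) and -1.25 (-3.5 kb site). The 72 h ratios therefore do not show a return of the GATA1 site to its 0 h level. These ratios were chosen after the values had been seen, and they were not tested, since exact permutation of 2 against 2 libraries reaches no p below 0.333.

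**Figure D2:**
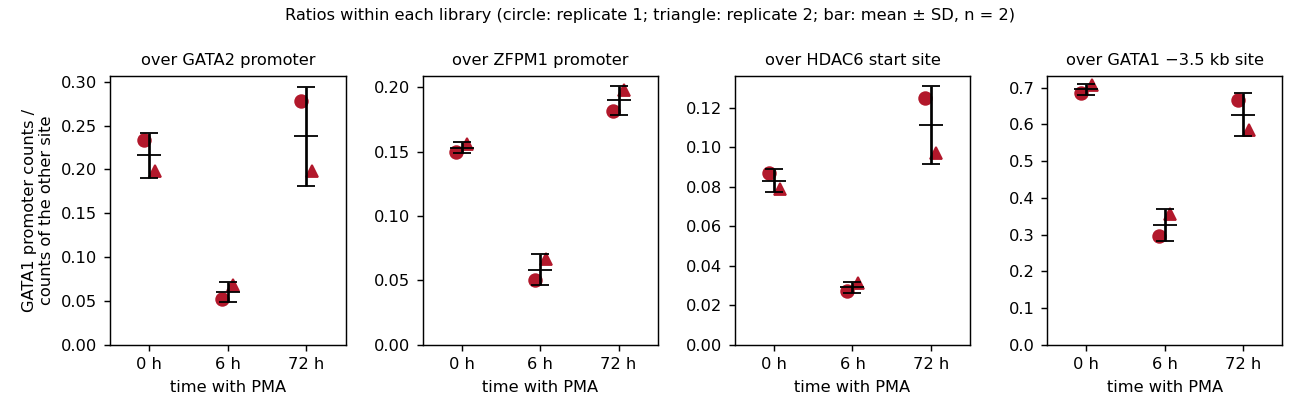
Counts of the GATA1 promoter site divided by counts of 4 other sites of the same library (vertical axes), by time with PMA, with the mean and SD (n = 2) as black bars. In each panel both 6 h libraries lie lowest, for example at 0.052 and 0.068 over the GATA2 promoter site.

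Further upstream of GATA1 the most accessible distal sites lost accessibility on the TMM scale, while weaker ones rose, fell or were not called. The -3.5 kb site (peak178044, chrX:48782690-48783439) lies in the region where an upstream enhancer of GATA1 is known. It was at 19.6 and 18.1 CPM at 0 h, 9.54 and 10.1 CPM at 6 h, and 8.07 and 7.71 CPM at 72 h. At 6 h it was at -0.93 (SE 0.19, edgeR adjusted p = 5.6e-04), and at 72 h at -1.25 (SE 0.19, edgeR adjusted p = 5.9e-06), the latter not called with TMM factors from shared sites (-0.29). Between 6 h and 72 h it differed by -0.32, which was not called (edgeR adjusted p = 0.185). Every library had a peak there, with summits between -3708 and -3669 bases.

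The -49.1 kb site (peak178035, chrX:48736928-48737955) was the most accessible distal site of the GATA1 window. It gave 52.6 and 64.2 CPM at 0 h, 36.0 and 41.0 CPM at 6 h, and 15.2 and 17.8 CPM at 72 h, so the 3 times did not overlap. The log2 fold change had reached -0.60 by 6 h (SE 0.16, edgeR adjusted p = 0.0040), and -1.82 by 72 h (SE 0.16, edgeR adjusted p = 4.0e-09). The 6 h call was lost with factors from shared sites (-0.30), with loess offsets (-0.32), without 0 h replicate 2 and without 6 h replicate 1. A weaker site at -20.9 kb within GLOD5 (peak178041) had its fall by 6 h, from 2.92 and 3.77 CPM to 1.28 and 1.17 CPM (-1.47, SE 0.36, edgeR adjusted p = 0.0022), and was at 1.42 and 1.44 CPM at 72 h. Its 72 h value of -1.23 was not called with total counts or factors from shared sites.

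In the opposite direction, the -32.4 kb site (peak178038, chrX:48753621-48754832) was at 1.62 and 3.34 CPM at 0 h, 2.22 and 4.49 CPM at 6 h, and 10.5 and 12.7 CPM at 72 h. The 0 h and 6 h libraries overlapped and both 72 h libraries were higher, with a log2 fold change of 2.18 (SE 0.31, edgeR adjusted p = 2.9e-06) at 72 h against 0 h. The +27.3 kb site within HDAC6 (peak178051) was likewise called at 72 h and not at 6 h, rising from 0.520 and 0.621 CPM at 0 h to 2.07 and 2.64 CPM at 72 h (2.03, SE 0.44, edgeR adjusted p = 3.8e-04). Another gain, at -16.1 kb (peak178042), was smaller, at 1.06 (edgeR adjusted p = 0.0050), and was not called with DESeq2, with loess offsets (0.42) or without 72 h replicate 2.

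Sites in and at the end of the GATA1 gene were not called at either time on the TMM scale. The +8.4 kb site (peak178048, chrX:48794095-48795826), which covers the 3' end of the gene, gave 28.3 and 35.3 CPM at 0 h, 16.8 and 28.0 CPM at 6 h, and 24.9 and 32.5 CPM at 72 h. The 72 h libraries overlapped those of both other times, and neither the -0.48 at 6 h (edgeR adjusted p = 0.060) nor the -0.15 at 72 h (edgeR adjusted p = 0.509) was called. This depended on the setting: the 6 h value was called lower under 7 of the 14 alternatives, among them the replicate block, DESeq2 and leaving out 6 h replicate 2 (-0.98), and the 72 h value was called higher with factors from shared sites (0.82) and loess offsets (0.83). The +2.4 kb site inside the gene (peak178047) lay between 3.25 and 6.07 CPM in all 6 libraries, and was called higher only with factors from shared sites (0.70 at 6 h and 1.03 at 72 h). In the whole GATA1 window, 1 site rose and 6 fell at 6 h, and 4 rose and 6 fell at 72 h, of 19, beside the 40.1% and 67.4% of all tested sites called at these times. With factors from shared sites 2 rose and 4 fell at 6 h, and 7 rose and 3 fell at 72 h. The HDAC6 start (peak178050), the strongest site near another gene's start in this window, went from 154 and 162 CPM at 0 h to 43.0 and 46.5 CPM at 72 h (-1.82, edgeR adjusted p = 3.5e-10), but its value with loess offsets was 0.09.

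**Figure D3:**
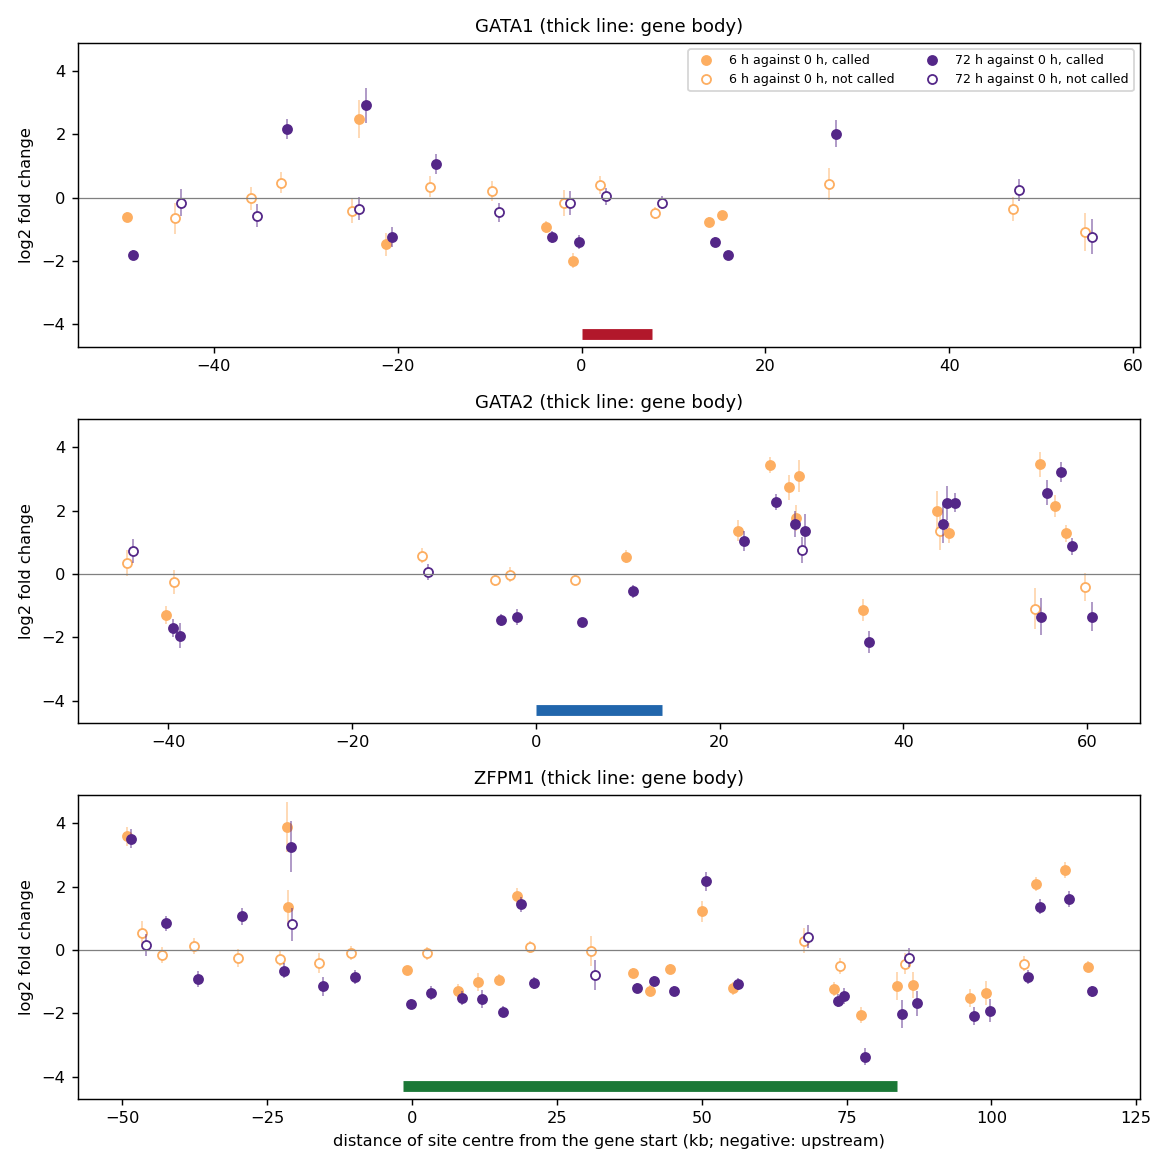
Log2 fold change ± SE of each of the 77 sites against the distance of its centre from the gene start in kb (negative: upstream), at 6 h (orange) and 72 h (purple) against 0 h, with filled points called and thick lines marking gene bodies. The sites downstream of GATA2 lie mostly above 0 and those within ZFPM1 mostly below 0; with TMM factors from shared sites 3 of the 16 distal sites within ZFPM1 are called higher and 4 lower at 72 h.

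GATA2, the progenitor factor, had its promoter site (peak118794, chr3:128487598-128489501) at the internal start, with its centre at 4.7 kb from the upstream start. No site of the table used here lay within 1000 bases of the upstream start, and no library's deposited list had a peak there. The promoter site was at 57.5 and 64.4 CPM at 0 h, 54.5 and 52.7 CPM at 6 h, and 19.4 and 22.7 CPM at 72 h. The 6 h libraries lay just below the 0 h libraries, and both 72 h libraries were far below both. The difference of -0.19 (SE 0.14) at 6 h was not called (edgeR adjusted p = 0.318). At 72 h the site was 2.90-fold lower than at 0 h (-1.53, SE 0.15, edgeR adjusted p = 1.4e-08), and the step from 6 h to 72 h was -1.35 (SE 0.15, edgeR adjusted p = 7.7e-07). With loess offsets the 72 h fall was -0.21 and not called (adjusted p = 0.150).

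Set beside all promoter sites, GATA2 stood above most at 6 h and fell more than most afterwards. At 6 h 75.8% of promoter sites had a lower log2 fold change than GATA2, at 72 h against 0 h 25.7%, and at 72 h against 6 h 4.75%. With loess offsets these shares were 85.1%, 62.9% and 28.2%.

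Upstream of GATA2, 4 of 6 sites fell by 72 h and none rose on the TMM scale. The -4.1 kb site (peak118796, chr3:128496530-128498168) was at 22.7 and 35.7 CPM at 0 h, 23.5 and 27.4 CPM at 6 h, and 10.8 and 10.5 CPM at 72 h. It did not change at a detectable level by 6 h (-0.20, SE 0.19, edgeR adjusted p = 0.431) and was lower at 72 h (-1.46, SE 0.19, edgeR adjusted p = 1.0e-06). Without 0 h replicate 1 its 6 h value was called. The -2.4 kb site (peak118795) had the same course, with -0.02 at 6 h and -1.36 (edgeR adjusted p = 3.6e-05) at 72 h, and the latter was not called with factors from shared sites. The -39.9 kb site (peak118799) fell already at 6 h (-1.29, edgeR adjusted p = 0.0012) and was at -1.70 at 72 h, while its neighbour at -39.1 kb (peak118798) was called only later, with -0.25 (edgeR adjusted p = 0.620) at 6 h and -1.95 (edgeR adjusted p = 1.7e-04) at 72 h. The -12.1 kb site (peak118797), the next most accessible after the -4.1 kb site, did not take this course and was not called at either time (0.58 and 0.06). With total counts and with factors from shared sites it was called higher at both times (0.71 and 0.87 at 6 h, 0.55 and 1.03 at 72 h), and its 6 h value also with the replicate block and without 0 h replicate 2 or 6 h replicate 1. Of the 6 upstream sites, none rose and 1 fell at 6 h, and none rose and 4 fell at 72 h. Beside this, 23.4% of all tested sites rose and 16.8% fell at 6 h, and 38.2% rose and 29.2% fell at 72 h. With factors from shared sites 2 of the 6 were called higher and 3 lower at 72 h.

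Inside the gene, the +10.2 kb site (peak118793, chr3:128482516-128483539) went up and then down. It was at 10.7 and 15.3 CPM at 0 h, 19.7 and 18.6 CPM at 6 h, and 8.87 and 8.98 CPM at 72 h, so the 6 h libraries were highest and the 72 h libraries lowest. The step from 6 h to 72 h was -1.10 (SE 0.20, edgeR adjusted p = 1.4e-04), not called with factors from shared sites. The rise of 0.54 (SE 0.20, edgeR adjusted p = 0.034) at 6 h was not called with RLE size factors, loess offsets or DESeq2, nor without any single library other than 0 h replicate 2. The -0.55 at 72 h against 0 h (edgeR adjusted p = 0.018) turned to 0.42 with factors from shared sites. It was also not called with total counts (-0.05) or loess offsets (-0.21), nor without 0 h replicate 2 or either 72 h library.

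Downstream of GATA2, toward and past the testis chaperone gene DNAJB8, most sites gained accessibility. Of 14 sites beyond the 3' end, 10 rose and 1 fell at 6 h, with a median log2 fold change of 1.57, and 10 rose and 3 fell at 72 h, with a median of 1.47. Among all tested sites 23.4% rose and 16.8% fell at 6 h, and 38.2% rose and 29.2% fell at 72 h. The 6 h count was 9 to 11 higher under the other scalings and DESeq2, and the 72 h count was 5 higher and 3 lower with loess offsets and 6 higher and 2 lower with DESeq2.

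The site near the start of DNAJB8, at +25.8 kb (peak118791, chr3:128467041-128467764), was the strongest of these. It was at 1.49 and 1.96 CPM at 0 h, 18.8 and 19.2 CPM at 6 h, and 7.86 and 9.20 CPM at 72 h. Both 6 h libraries lay above both 72 h libraries, which lay above both 0 h libraries. The rise was 10.8-fold at 6 h (3.44, SE 0.25, edgeR adjusted p = 8.7e-10), and 2.28 (SE 0.25, edgeR adjusted p = 6.7e-08) remained at 72 h. From 6 h to 72 h it fell by 1.15 on the log2 scale (SE 0.20, edgeR adjusted p = 1.1e-04).

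Other downstream sites had different courses on the TMM scale. The +55.3 kb site (peak118782) was at 0.585 and 0.382 CPM at 0 h, 4.43 and 5.85 CPM at 6 h, and 2.69 and 2.95 CPM at 72 h, highest at 6 h (3.46, SE 0.39, edgeR adjusted p = 3.2e-07). Its fall of -0.89 after 6 h was not called with total counts (-0.52) or shared-site factors (-0.22), nor without 6 h replicate 2 or either 72 h library. Its neighbour at +56.8 kb (peak118781) went from 0.650 and 1.19 CPM at 0 h to 4.35 and 4.17 CPM at 6 h and 7.45 and 10.2 CPM at 72 h. That site was highest at 72 h, 9.22-fold above 0 h (3.21, SE 0.32, edgeR adjusted p = 2.2e-08), and its further rise of 1.05 after 6 h was not called without 72 h replicate 2. The +45.3 kb site (peak118784) also rose at both steps, with 1.30 (edgeR adjusted p = 0.0022) at 6 h and 2.25 (edgeR adjusted p = 1.0e-06) at 72 h. Without 6 h replicate 2 its 6 h value was not called, and its second rise (0.95) was not called without 6 h replicate 1 or 72 h replicate 2. Closer to the gene than these, the +35.9 kb site (peak118787) went the other way, with -1.14 (edgeR adjusted p = 0.012) at 6 h and -2.16 (edgeR adjusted p = 1.2e-05) at 72 h. The 6 h value of that site was not called with factors from shared sites (-0.84, adjusted p = 0.067) or without 6 h replicate 2.

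Over the whole GATA2 window of 22 sites, 11 rose and 2 fell at 6 h and 10 rose and 9 fell at 72 h, beside 23.4% and 16.8% of all tested sites at 6 h and 38.2% and 29.2% at 72 h. The 72 h split was 13 higher and 5 lower with factors from shared sites, 13 and 6 with total counts, and 5 and 7 with loess offsets. In calls of 6 h against 0 h followed by 72 h against 6 h, which share the 6 h libraries, 6 sites were higher and then lower, 3 higher and then not called, 2 higher at both steps, and 4 not called and then lower. A further 5 were not called at either step, 1 was lower at both, and 1 was lower and then not called. The same tally over all tested sites was not made, so these courses cannot be called particular to GATA2. The 4 most accessible sites, with a mean of 10 CPM or more, included 1 that rose and none that fell at 6 h. At 72 h none of them rose and 3 fell. Of all tested sites of that strength, 19.9% rose and 41.9% fell at 6 h, and 14.2% rose and 73.4% fell at 72 h.

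ZFPM1, the cofactor, had a promoter site (peak68328, chr16:88451989-88453482) that fell at each step on the TMM scale. It was at 89.5 and 82.0 CPM at 0 h, 56.3 and 54.0 CPM at 6 h, and 29.6 and 22.8 CPM at 72 h, with no overlap between times. It had fallen to -0.64 by 6 h (log2 fold change, SE 0.15, edgeR adjusted p = 0.0015), and by 72 h the site was 3.27-fold lower (-1.71, SE 0.15, edgeR adjusted p = 4.0e-09). At 6 h the call was lost with factors from shared sites (-0.34) and loess offsets (-0.22), and at 72 h with loess offsets (-0.23, adjusted p = 0.166). The second step, -1.07 at 72 h against 6 h, was -0.01 with loess offsets (adjusted p = 0.970). Of all promoter sites 19.1% had a lower value at 6 h and 11.2% at 72 h, against 52.9% and 61.7% with loess offsets.

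Along the ZFPM1 gene body, more distal sites were called lower than higher on the TMM scale. Of 16 such sites, 2 rose and 9 fell at 6 h (median -0.66), and 2 rose and 12 fell at 72 h (median -1.25). Among all tested sites, 23.4% rose and 16.8% fell at 6 h, and 38.2% rose and 29.2% fell at 72 h. Several of the 16 had a mean of 10 CPM or more. Of all tested sites of that strength, 41.9% fell at 6 h and 73.4% at 72 h. With factors from shared sites the 72 h count was 3 higher and 4 lower. Among the strongest, the +8.4 kb site (peak68330) was at 27.4 and 41.2 CPM at 0 h, 9.12 and 17.7 CPM at 6 h, and 11.8 and 12.1 CPM at 72 h. Its 6 h and 72 h libraries overlapped and both lay below 0 h, with a 6 h value of -1.31 (SE 0.23, edgeR adjusted p = 1.2e-04) and a 72 h value of -1.52 (SE 0.23, edgeR adjusted p = 6.2e-06). The +15.4 kb site (peak68332) fell at both steps, from 28.7 and 35.5 CPM at 0 h to 15.6 and 17.8 CPM at 6 h and 8.17 and 8.44 CPM at 72 h (-1.95 at 72 h against 0 h, SE 0.18, edgeR adjusted p = 7.7e-09). Its second step of -1.02 was not called with factors from shared sites (-0.34) or loess offsets (-0.42).

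The +41.4 kb site (peak68337) had its low point at 6 h. It averaged 37.3 ± 5.94 CPM at 0 h, 15.3 ± 1.81 CPM at 6 h and 18.9 ± 2.30 CPM at 72 h (SD, n = 2). Both 72 h libraries lay above the 6 h libraries. This rise of 0.30 on the log2 scale was not called with TMM (edgeR adjusted p = 0.169). It was called with total counts (0.66), factors from shared sites (0.97) and loess offsets (1.02). Against 0 h the site was at -1.28 (edgeR adjusted p = 5.3e-06) at 6 h and -0.98 (edgeR adjusted p = 3.4e-05) at 72 h. The latter was not called with factors from shared sites (-0.01) or loess offsets (-0.15). Other strong sites, at +38.5 kb (peak68336) and +44.9 kb (peak68338), were at -0.72 and -0.61 at 6 h and at -1.20 and -1.29 at 72 h, all called. Both 72 h calls, and the 6 h call of peak68338, were lost with factors from shared sites, and the 72 h call of peak68336 also with loess offsets (-0.32).

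The largest loss of the 77 sites at 72 h was at +77.8 kb, near the 3' end of ZFPM1 (peak68344, chr16:88530738-88531347). It was at 11.7 and 11.9 CPM at 0 h, 2.98 and 2.72 CPM at 6 h, and 1.14 and 1.13 CPM at 72 h. Both steps were called, the second not with factors from shared sites (-0.64, adjusted p = 0.068), and the libraries of a time were nearly equal. The site was at -2.06 (SE 0.25, edgeR adjusted p = 1.2e-06) at 6 h and 10.4-fold lower (-3.37, SE 0.26, edgeR adjusted p = 9.7e-10) at 72 h, and under the alternatives tried the 72 h value ran from -3.89 to -2.41. Both 0 h libraries had a peak there and none of the later 4 did.

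Against this trend, a few ZFPM1 sites opened. The +50.3 kb site in the gene (peak68339) rose from 1.43 ± 0.464 CPM at 0 h to 3.29 ± 0.0472 CPM at 6 h and 6.31 ± 1.05 CPM at 72 h (SD, n = 2; 2.17 at 72 h, SE 0.31, edgeR adjusted p = 2.5e-06). Its 6 h value of 1.23 was not called with loess offsets (0.81) or without 0 h replicate 2. The largest gain with counts in every library was far upstream, at -48.9 kb within ZNF469, a zinc-finger gene (peak68318, chr16:88404031-88404774). It was at 0.910 and 0.764 CPM at 0 h, 10.7 and 9.52 CPM at 6 h, and 9.72 and 9.36 CPM at 72 h. Its rise was 3.59 by 6 h (SE 0.29, edgeR adjusted p = 4.1e-09), and the 72 h value was 3.52, or 11.5-fold (SE 0.29, edgeR adjusted p = 1.8e-09). A site at -21.3 kb (peak68324) had 3 counts in the 0 h libraries together, 54 at 6 h and 68 at 72 h, a ratio of CPM of 15.1 (exact 95% interval 4.89 to 75.4) at 6 h and 10.2 (3.33 to 50.5) at 72 h. These intervals cover counting error only.

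The flanks of ZFPM1 were mixed. Of 10 distal sites upstream of the gene, 3 rose and none fell at 6 h, and 4 rose and 4 fell at 72 h. Of 8 distal sites downstream, 2 rose and 4 fell at 6 h, and 2 rose and 5 fell at 72 h. Among all tested sites 23.4% rose and 16.8% fell at 6 h, and 38.2% rose and 29.2% fell at 72 h. These flank counts lie on the TMM scale. The +96.6 kb site (peak68348) was at -1.51 (edgeR adjusted p = 1.9e-04) at 6 h and -2.09 (edgeR adjusted p = 9.6e-07) at 72 h. A weaker site just past the 3' end, at +84.1 kb (peak68345), was at -2.02 (edgeR adjusted p = 4.2e-04) at 72 h. The start of the next gene, ZC3H18, which encodes a zinc-finger protein of nuclear RNA processing, was lower too (peak68353, -0.53 at 6 h and -1.30 at 72 h), with the 6 h call lost with total counts (-0.40), shared-site factors (-0.24) and loess offsets (-0.41) and without 6 h replicate 1, and the 72 h call lost with factors from shared sites.

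**Figure D4:**
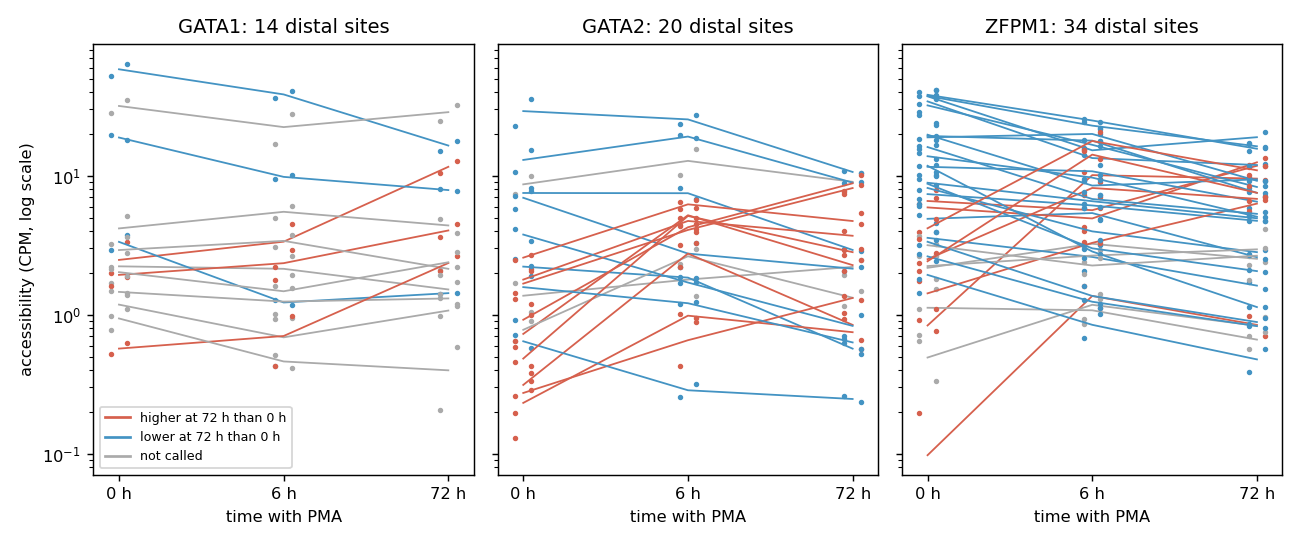
Accessibility (CPM, log axis) of every distal site of each gene, with points for libraries, lines through the means of the 2 libraries of a time, and colour for the call at 72 h against 0 h on the TMM scale (a library with 0 counts has no point). Most strong sites of ZFPM1 decline and several weak sites of GATA2 rise, with exceptions such as peak68351 of ZFPM1, which is strong and rises (2.08 at 6 h, 1.37 at 72 h), and peak178048 of GATA1, which is strong and not called; how many are called in each direction depends on the scaling.

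Summed over each window, accessibility also moved differently at the 3 genes. The 19 GATA1 sites summed to 333 and 365 CPM at 0 h, 216 and 252 CPM at 6 h, and 146 and 165 CPM at 72 h. At 0 h the HDAC6 start sites peak178050 (154 and 162 CPM) and peak178049 (42.9 CPM in both libraries) made up much of this sum. The 14 distal GATA1 sites alone summed to 120 and 144 CPM at 0 h. They came to 80.6 and 106 CPM at 6 h and 78.6 and 92.8 CPM at 72 h, which overlap. The 36 ZFPM1 sites declined at both steps, from 459 and 530 CPM to 338 and 375 CPM and then 253 and 252 CPM. The 22 GATA2 sites were at 131 and 164 CPM at 0 h, 179 and 188 CPM at 6 h, and 95.1 and 110 CPM at 72 h. Only this window was highest at 6 h. Its sum includes peak118791 near the DNAJB8 start, at 1.49 and 1.96 CPM at 0 h and 18.8 and 19.2 CPM at 6 h. The 20 distal GATA2 sites alone summed to 71.9 and 97.6 CPM at 0 h. They came to 106 and 116 CPM at 6 h and 67.9 and 78.0 CPM at 72 h. These sums lie on the TMM scale and were not tested. The number of sites with a deposited peak did not follow the sums: at GATA1 it was 6 and 10 of 19 at 0 h and 14 and 17 at 72 h, and at GATA2 8 and 8 of 22 at 0 h and 14 and 15 at 72 h. At ZFPM1 it was 20 and 26 of 36 at 0 h and 24 and 28 at 72 h. The full peak lists grew as well, from 61873 and 69152 peaks at 0 h to 138914 and 142305 at 72 h. Depth moved with these numbers, since the 72 h libraries were deeper than the 0 h libraries, and its part was not tested.

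Calls were also counted by site strength. Of the 11 ZFPM1 sites with a mean of 10 CPM or more, 1 rose and 8 fell at 6 h and 1 rose and 10 fell at 72 h. Of the 5 such GATA1 sites, none rose and 4 fell at either time. Over all 22709 tested sites of this strength, 19.9% rose and 41.9% fell at 6 h, and 14.2% rose and 73.4% fell at 72 h, so falls were common among strong sites anywhere. Among weaker sites at 72 h, 4 rose and 2 fell of 14 at GATA1, 10 rose and 6 fell of 18 at GATA2, and 7 rose and 13 fell of 25 at ZFPM1, where 41.7% of all weaker tested sites rose and 22.8% fell. Loess offsets take out changes that follow site strength.

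Promoters of other factors of the same network were lower by 72 h, as most promoters were. A list of 15 genes held partners and neighbours of the GATA factors in this network, of which 10 had a start in the promoter table and 9 a site within 1000 bases of it. None of the 9 rose and 6 fell at 6 h (median -0.59), and none rose and 9 fell at 72 h (median -1.52), beside 46.6% and 83.8% of all promoter sites that fell (medians -0.41 and -1.31). The list was not tested against promoters at large. With factors from shared sites 2 fell at 6 h and 7 at 72 h, and with loess offsets 1 rose and 5 fell at 6 h and 1 rose and 7 fell at 72 h. LYL1, a helix-loop-helix partner of the GATA factors, went from 77.9 and 87.0 CPM at 0 h to 34.4 and 29.3 CPM at 6 h, then 27.6 and 29.7 CPM at 72 h. Its early fall (-1.38, edgeR adjusted p = 1.8e-07) was the largest of the 9, and its 72 h value of -1.52 was not called with loess offsets (-0.16).

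MYB, a factor of proliferating progenitors, was at -0.84 (edgeR adjusted p = 1.7e-04) at 6 h and -1.93 (edgeR adjusted p = 1.9e-09) at 72 h. RUNX1, which partners GATA1 in megakaryocytes, was, like GATA2, not called at 6 h (-0.14, edgeR adjusted p = 0.515) and lower at 72 h (-1.36, edgeR adjusted p = 2.3e-07), though its 6 h value was called higher with loess offsets (0.52) and lower without 0 h replicate 1 (-0.46). KIT, the stem cell factor receptor, had the smallest 72 h fall of the 9 (-0.77, edgeR adjusted p = 0.0030), not called with total counts (-0.26), with factors from shared sites (0.20) or without 0 h replicate 2. No listed site lay within 1000 bases of the start of KLF1, and LMO2, NFE2, FLI1, SPI1 and ZFPM2 have no entry in the promoter table.

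**Figure D5:**
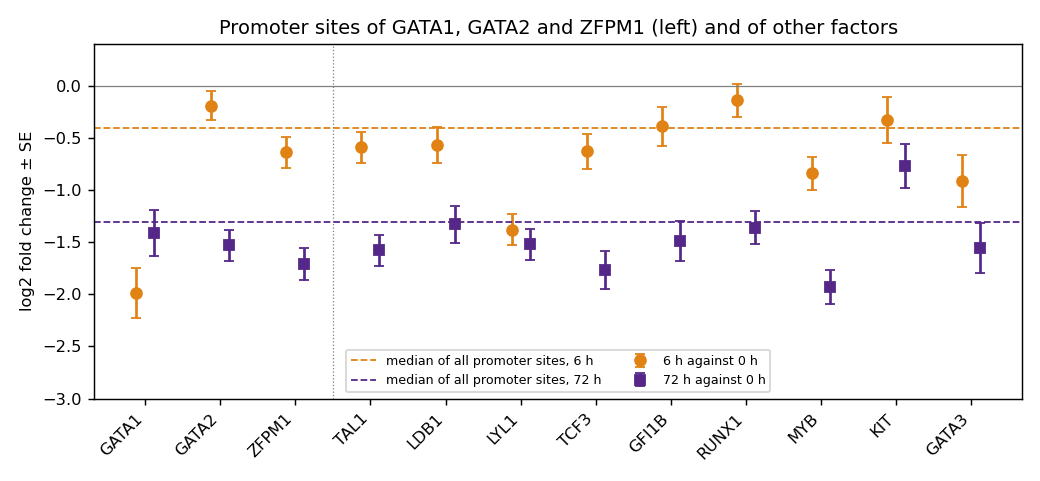
Log2 fold change ± SE of the promoter sites of the 3 genes (left of the dotted line) and of 9 other factors at 6 h (orange circles) and 72 h (purple squares) against 0 h, with dashed lines at the medians of all promoter sites (-0.41 and -1.31). GATA1 has the lowest 6 h value, and its 72 h value lies near the median line; with TMM factors from shared sites its 72 h value is -0.44.

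The promoter sites closest in course to each gene were sought among 11159 other genes, by the root mean square difference of log2 CPM, centred per site, over the 6 libraries. AQP8 (0.137), LRRC25 (0.195) and ACSL6 (0.200) were closest to GATA1. AQP8, a water channel gene, was at 8.90 and 7.45 CPM at 0 h, 1.70 and 2.53 CPM at 6 h, and 2.82 and 2.95 CPM at 72 h. E2F3 (0.036), ITGB1 (0.040) and UFL1 (0.040) were closest to GATA2, and DLGAP4 (0.038), NR1D1 (0.046) and RBM20 (0.055) to ZFPM1. The nearest course to GATA1 was thus further away than the third nearest to GATA2 or ZFPM1, and the GATA1 site also had fewer counts than those of GATA2 and ZFPM1; the part of its lower counts was not tested.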

How the data were processed

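ATAC-seq was run on 6 K562 libraries, 2 at each of 0, 6 and 72 h of PMA. The submitters' processing notes name Trim Galore 0.4.3, BWA 0.7.17, SAMtools 1.9, deepTools 3.0.1, MACS2, bedtools 2.26 and DESeq, with the build hg38; the read filters, any shift for the transposase and how the site list was made are not given in the sources used here. Per the file headers, the deposited table of 181135 sites holds a raw read count per library, the authors' own log2 fold changes at 6 and 72 h, an adjusted p-value and a class. The authors' peak lists, deposited per library in narrowPeak layout, hold a score, a fold enrichment over background and −log10 p-values and q-values; only peak positions, summits and enrichment ranks within a list were used. Table starts count from 0 and were shifted to count from 1.

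Counts were fitted with edgeR 4.0.16 (R 4.3.3): TMM scaling, the default filter with a minimum of 10 counts, which left 177759 sites, and a quasi-likelihood model of the 3 times over all 6 libraries. Called means an adjusted p under 0.05 (Benjamini-Hochberg over all tested sites). The fit was tested on simulated counts. Replicates differed by more than sampling noise (chi-square per degree of freedom from 3.5 to 4.95), so each was counted as its own library.

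Sites within 1000 bases of a start of GATA1, GATA2 or ZFPM1 are promoter sites, and those within 1000 bases of an end of another protein-coding gene were kept apart from the distal ones. Named are all promoter sites, the 5 most accessible distal sites of each gene, and the 3 largest changes in each direction at 72 h among called distal sites with a mean of at least 0.5 CPM and no overlap with 0 h; of sites near other genes' starts, the strongest of each window. The members and lists were chosen with earlier results of these data known. RefSeq tables (GRCh38.p14) gave gene intervals, starts and promoter bases for all 3 genes; they hold no exons, so exonic or intronic position is not stated. Alternatives were RLE factors, total counts, TMM factors from sites with a peak in all 6 libraries, loess offsets, no filter, DESeq2 1.42.0, a stricter threshold, a replicate block and leaving out each library.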

Additional observations from a re-analysis of the deposited data

Results flagged for a closer look

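At 21 named sites the change from 0 h differed between 6 h and 72 h, by the edgeR test of 72 h against 6 h (adjusted p under 0.05 over all tested sites); both changes share the 0 h libraries. Of these 21 calls, 11 were lost under another scaling, 4 only when a library was left out, and, the stricter threshold aside, 6 under none of the alternatives: peak178038, peak118798, peak118796, peak118795, peak118794 and peak118791. Values are the log2 change at 72 h minus that at 6 h.

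At GATA1 the difference was -1.23 at peak178035 (-49.1 kb), 1.70 at peak178038 (-32.4 kb), 1.59 at peak178051 (+27.3 kb) and -1.29 at peak178050, the HDAC6 start. The calls of peak178035 and peak178050 were lost with loess offsets (-0.33 and 0.00), and that of peak178051 without 72 h replicate 2. The GATA1 promoter site was not among them.

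At GATA2 it was -1.35 at the promoter site peak118794 and, upstream, -1.69 at peak118798, -1.27 at peak118796 and -1.34 at peak118795. Inside and downstream of the gene it was -1.10 at peak118793, -1.15 at peak118791, -1.03 at peak118787 and -0.89 at peak118782, while it was positive at peak118784 (0.95) and peak118781 (1.05). The call of peak118793 was lost with factors from shared sites (-0.42). That of peak118787 was lost with total counts (-0.67), factors from shared sites (-0.36) and DESeq2 and without any 1 of the 6 h and 72 h libraries, and that of peak118782 with total counts (-0.52) and factors from shared sites (-0.22) and without 6 h replicate 2 or either 72 h library. Those of peak118784 and peak118781 were lost without 72 h replicate 2, the former also without 6 h replicate 1.

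At ZFPM1 it was -1.07 at the promoter site peak68328, -1.02 at peak68332, -0.49 at peak68336, -0.68 at peak68338, -1.31 at peak68344 and -0.77 at peak68353, the ZC3H18 start, and it was 0.94 at peak68339. None of these 7 calls held under every alternative. With loess offsets peak68328 was at -0.01, peak68332 at -0.42, peak68336 at 0.26, peak68338 at 0.08 and peak68353 at -0.03. With factors from shared sites peak68332 was at -0.34, peak68336 at 0.19, peak68338 at -0.00, peak68344 at -0.64 and peak68353 at -0.09. None of these values was called. Total counts also ended the calls of peak68336, peak68338 and peak68353. Leaving out any 1 of the 6 h and 72 h libraries ended that of peak68336, and leaving out 72 h replicate 2 those of peak68339 and peak68353.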

How the results depend on the processing

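Of the 35 named sites, 105 comparisons were recomputed under 14 alternatives. Of the 1470 values, 1309 kept both the direction and the side of the threshold, 108 fell short of the threshold, 43 newly passed it and 10 changed sign with a call on at least 1 side. A further 44 changed sign without a call on either side. The cause of these changes was not tested. The sign changes were at peak178050 with loess offsets (0.09 at 6 h, 0.09 at 72 h and 0.00 at 72 h against 6 h), at peak178048 at 72 h (0.82 with factors from shared sites, 0.83 with loess offsets), at peak118793 at 72 h with factors from shared sites (0.42), and, at 72 h against 6 h, at peak68318 (0.60) and peak68336 (0.19) with factors from shared sites and at peak68336 (0.26) and peak68338 (0.08) with loess offsets. At the stricter threshold (adjusted p under 0.01, log2 fold change above 1 in size), 26 member sites were called at 6 h against 0 h and 21 at 72 h against 6 h. Leaving out 1 library gave 35 to 44 called members at 6 h, 53 to 61 at 72 h, and 19 to 38 at 72 h against 6 h, the lowest (19) without 72 h replicate 2. Same-numbered replicates did not deviate together (r of 0.082, 0.053 and 0.085 across sites), and a replicate block in the model called 43, 60 and 38 members. The block also called the GATA1 promoter difference between 72 h and 6 h (0.57, adjusted p = 0.048). A reach of 500 bases moved 1 GATA1 site near another gene to the distal ones. There were 2 libraries per time, and their depth differed most at 6 h. The part of depth was not tested.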

Other observations

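The authors' deposited table gives each site a class name (upEarly, upLate, downEarly, downLate or static), and these names did not follow the sign of the deposited log2 fold changes. The median deposited log2 fold change at 72 h was 2.26 for downEarly, 2.30 for downLate, 2.26 for upEarly and 2.28 for upLate, and 69.5%, 71.9%, 69.3% and 71.1% of their sites had a positive value in the authors' deposited table. Among the 77 sites, peak68344 and peak68332 at ZFPM1, both lower in the counts, carry up classes in that table, and peak118784 and peak118781 at GATA2, both higher, carry the downLate class. Class names were therefore not used for direction.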
